A study of Homo sapiens with 2 samples.

Results

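Actin and contractile genes were followed in TPC-1, a human line from a papillary thyroid carcinoma, after transfection with an siRNA against XPR1 or with a control siRNA. XPR1 encodes the phosphate exporter of human cells. The set holds 10 genes named by symbol, out of 58884 genes in the deposited table. They encode the smooth muscle alpha actin ACTA2, the cytoplasmic actins ACTB and ACTG1, the myosin light chains MYL6 and MYL9, the filament binding proteins TAGLN, CNN1 and CALD1, and the tropomyosins TPM1 and TPM2. The XPR1 siRNA group and the control siRNA group had 1 library each, both from the same cell line. Nothing therefore measures the spread within a group, no p-value is given, and higher and lower describe these 2 libraries. The time after transfection is not given in the sources used here.

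Actin filaments and non-muscle myosin II together form the contractile bundles of a cell. Myosin II pulls on the filaments once its regulatory light chain is phosphorylated, and tropomyosins, caldesmon, calponin and transgelin lie along the filaments and govern access to them. Many of these genes are classical targets of serum response factor (SRF), which binds a DNA element called the CArG box. SRF works with myocardin-related factors (MRTFs), which respond to the pool of free actin, or with ternary complex factors (TCFs), which respond to ERK signalling.

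Levels are in TPM, a length-corrected share of all transcripts of a library scaled to a sum of 1000000. The XPR1 siRNA library held about 15150000 counted reads and the control library about 15770000. XPR1 was 5.31 TPM in the XPR1 siRNA library and 39.2 TPM in the control library, so 13.5% of the control level was left (95% Clopper-Pearson interval 11.6% to 15.7%). Such intervals cover counting error only. The mitochondrial share of the TPM was 27.5% with XPR1 siRNA and 27.3% with control siRNA. Of 9 thyroid and simple epithelial markers, PAX8, FOXE1, KRT7, KRT8 and KRT18 reached a mean of 1 TPM, whereas NKX2-1 and EPCAM were listed at 0 in both libraries. The 9 summed to 557.8 TPM with XPR1 siRNA and 796.4 TPM with control siRNA, most of it PAX8 (408.6 TPM and 588.1 TPM). Of the 5 that reached a mean of 1 TPM, only FOXE1 was higher with XPR1 siRNA, at 13.7 TPM against 11.1 TPM. Its ratio was 1.24, and the counting interval, 0.9997 to 1.54, included 1.

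All 10 genes had a higher TPM in the XPR1 siRNA library than in the control library. The ratio of TPM ran between 1.11 for ACTG1 and 5.81 for MYL9, with a median of 1.60. The counting interval of CNN1, the lowest of the set, included 1. Such intervals narrow with the number of reads, so a small ratio of an abundant gene can lie outside them. Together they made up 1.07% of all TPM with XPR1 siRNA and 0.840% with control siRNA. ACTB and ACTG1 dominated these sums, and the other 8 genes totalled 979 TPM with XPR1 siRNA and 520 TPM with control siRNA.

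To read these counts against the whole table, genes averaging 1 TPM or more over the 2 libraries were compared as differences of log2(TPM + 1), a scale that understates the change of low genes. Of the 10 genes, 9 passed this floor, and CNN1 did not. The 9 had a median difference of 0.55 on this scale, and all 16319 genes compared had a median of 0.05. All 9 were above 0, as were 54.4% of all genes. At least 1.5-fold higher on this scale were 4 of the 9, namely MYL9, MYL6, CALD1 and TPM2, against 21.7% of all genes. At least 2-fold higher were MYL9 and MYL6, against 10.4% of all genes. None of the 9 was 1.5-fold lower or more, against 16.6% of all genes, and so none was 2-fold lower, against 8.57%. With so few genes, these counts describe the set and do not set it apart.

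**Figure D1:**
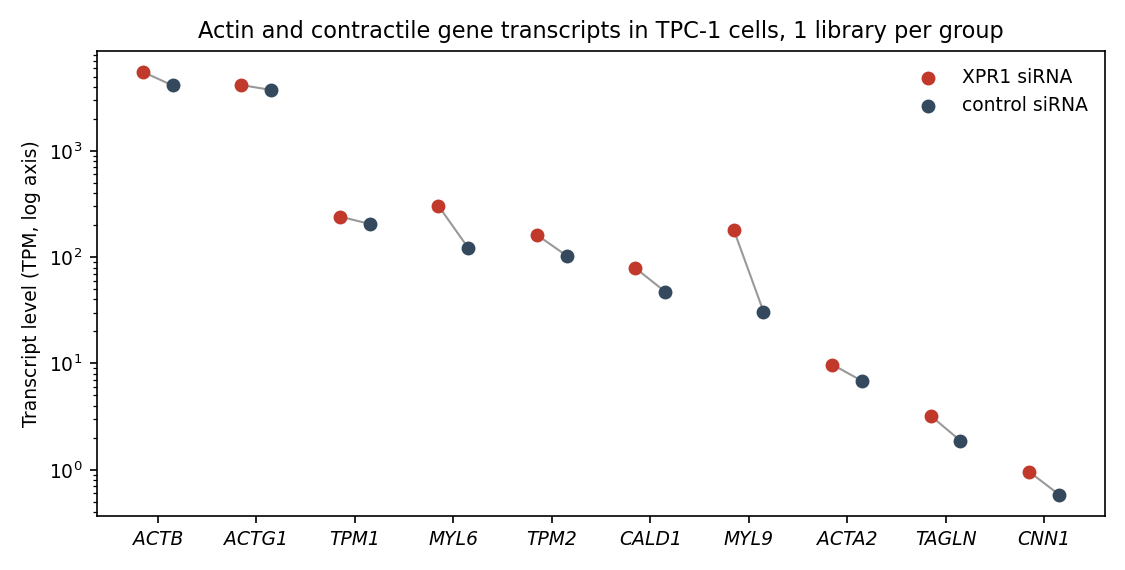
Transcript level in TPM (log axis) of the 10 genes in the XPR1 siRNA library (red) and the control siRNA library (dark), 1 library each, ordered by the control level. Every red point lies above its dark partner, with the widest gap for MYL9 (178.8 and 30.8 TPM).

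Among the actins, the cytoplasmic isoforms made up nearly all transcripts. ACTB (ENSG00000075624, chromosome 7, 5527147 to 5563784, minus strand of GRCh38) was 5542 TPM with XPR1 siRNA and 4127 TPM with control siRNA. Its ratio was 1.34, with an interval of 1.33 to 1.36 from 76796 and 59444 reads. ACTG1 (ENSG00000184009, chromosome 17, 81509971 to 81523847, minus strand) was 4166 TPM with XPR1 siRNA and 3748 TPM with control siRNA, a ratio of 1.11 (1.10 to 1.13). The 2 genes thus differed by unequal factors, and their intervals did not overlap.

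ACTA2 (ENSG00000107796, chromosome 10, 88935074 to 88991339, minus strand), the actin of smooth muscle and myofibroblasts, was far lower, at 9.77 TPM with XPR1 siRNA and 6.85 TPM with control siRNA. Its ratio of 1.43 rests on 118 and 86 reads (1.07 to 1.91). FAS, on the opposite strand, shares 380 of the 2976 exonic bases of ACTA2, and the library kit does not mark strand. FAS itself was 25.7 TPM with XPR1 siRNA and 21.6 TPM with control siRNA. The antisense gene ACTA2-AS1 shares 516 exonic bases with ACTA2 and was 0.310 TPM with XPR1 siRNA and 0 TPM with control siRNA. The part of FAS or ACTA2-AS1 in the ACTA2 value was not tested.

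The other actin genes were at or near 0. ACTBL2 had 7 reads with XPR1 siRNA and 4 with control siRNA, ACTA1 of skeletal muscle had 1 and 0, and cardiac ACTC1 had 0 and 1. Enteric smooth muscle ACTG2 had none in either library, where 3 reads, the limit that a count of 0 allows, would be 0.194 TPM with XPR1 siRNA and 0.187 TPM with control siRNA. Within the summed TPM of these 7 actin genes, ACTB took 57.0% with XPR1 siRNA (56.8% to 57.3%) and 52.4% with control siRNA (52.1% to 52.7%). ACTG1 took 42.9% and 47.5% in the same order of libraries, and ACTA2 0.1005% and 0.0869%.

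The assignment of reads between actin genes was not tested. The coding sequences of ACTB and ACTG1 are 91.3% identical, and the longest run of bases that their principal transcripts share exactly is 59 bases. Between ACTA2 and ACTB the identity is 81.8% and the longest shared run 32 bases. Of 12 annotated ACTB pseudogenes, 1 was above 0 with XPR1 siRNA and 2 with control siRNA, and together they held 0.658 TPM and 0.428 TPM. The 21 ACTG1 pseudogenes held 7.72 TPM with XPR1 siRNA and 8.61 TPM with control siRNA, small beside the gene itself.

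Start-site windows show which of these genes carry the SRF element close to a start of transcription. RefSeq windows on GRCh38.p14, running 250 bases before to 50 bases after a start site, were matched for 7 of the 10 genes, with 12 windows in all. ACTB, MYL9 and TAGLN were not among them. The CArG box, which reads the same class of sequence on both strands, was searched in its strict form and with 1 of the 6 core bases allowed to be G or C. The strict form was found in 1 of the 12 windows, that of ACTG1, at bases -94 to -85 from the start site, and in 1.29% of all 35116 windows. With the relaxed form included, 3 of the 12 windows held a match, in ACTG1, ACTA2 and CALD1, against 8.13% of all windows. For ACTA2, 1 of its 2 windows held 2 relaxed matches, at -121 to -112 and at -71 to -62. For CALD1, 1 of its 4 windows held 1, at -26 to -17, and that RefSeq window (chromosome 7, 134711249 to 134711548) lies upstream of the GENCODE range of CALD1 given with its level. The element CATTCC, bound by TEAD factors and searched on both strands, was in 3 of the 12 windows (ACTA2 once, CALD1 in 2 windows) and in 14.0% of all windows. It did not overlap the CArG matches in ACTA2. The 250 bases upstream of the start site are shown for the 2 actins with a match and, beside them, for MYL6, which had none. Any link between a match and a ratio was not tested. Capitals mark CArG box matches. Positions are chr17:81512800-81513049 on the minus strand for ACTG1, chr10:88952774-88953023 on the minus strand for ACTA2, and chr12:56158109-56158358 on the plus strand for MYL6.
ACTG1: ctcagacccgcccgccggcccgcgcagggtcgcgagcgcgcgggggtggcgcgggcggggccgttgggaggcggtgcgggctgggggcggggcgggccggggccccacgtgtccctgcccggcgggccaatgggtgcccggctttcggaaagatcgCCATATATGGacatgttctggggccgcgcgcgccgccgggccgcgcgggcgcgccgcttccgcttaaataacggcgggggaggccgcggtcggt
ACTA2: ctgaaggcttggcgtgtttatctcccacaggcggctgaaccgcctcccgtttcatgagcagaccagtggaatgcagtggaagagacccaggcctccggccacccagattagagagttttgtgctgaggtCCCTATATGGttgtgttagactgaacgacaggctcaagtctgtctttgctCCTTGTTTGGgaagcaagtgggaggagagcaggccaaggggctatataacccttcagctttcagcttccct
MYL6: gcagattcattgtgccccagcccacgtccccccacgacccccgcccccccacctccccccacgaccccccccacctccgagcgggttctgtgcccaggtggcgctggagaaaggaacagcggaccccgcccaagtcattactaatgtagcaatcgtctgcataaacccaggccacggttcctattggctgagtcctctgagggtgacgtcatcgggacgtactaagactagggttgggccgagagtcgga
The match in ACTG1 keeps an all-A/T core, whereas both ACTA2 matches have 1 G or C in the core. A match is a run of letters and no measurement of binding.

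Myosin light chains showed the widest differences of the set. MYL9 (ENSG00000101335, chromosome 20, 36541484 to 36551447, plus strand), a regulatory light chain typical of smooth muscle and contractile cells, was 178.8 TPM with XPR1 siRNA and 30.8 TPM with control siRNA. From 2039 and 365 reads the ratio was 5.81, with an interval of 5.19 to 6.51. On the log2(TPM + 1) scale it differed by 2.50, rank 29 from the highest among 8264 protein-coding genes averaging 10 TPM or more. Its paralogs MYL12A and MYL12B, the regulatory light chains of most non-muscle cells, were nearer to 1. MYL12A was 317 TPM with XPR1 siRNA and 337 TPM with control siRNA, a ratio of 0.939 (0.901 to 0.980). MYL12B was 417 TPM with XPR1 siRNA and 335 TPM with control siRNA, a ratio of 1.25 (1.18 to 1.31).

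The makeup of the regulatory light chain transcripts differed accordingly. MYL9 took 19.6% of the summed TPM of MYL9, MYL12A and MYL12B with XPR1 siRNA (18.8% to 20.4%), and 4.38% with control siRNA (3.95% to 4.85%). MYL12A took 34.7% with XPR1 siRNA and 48.0% with control siRNA. These shares, chosen after the values were seen, depend on gene length. With the length of the principal transcript in place of all annotated exons, MYL9 took 8.81% with XPR1 siRNA and 1.71% with control siRNA. Both shares were smaller, and the share with XPR1 siRNA was again the higher one. For MYL9 itself, the length over all exons is 0.995 times that of the principal transcript. The smaller shares thus reflect the changed lengths of MYL12A and MYL12B. The principal coding sequence of MYL9 is 78.9% identical to that of MYL12A and 80.8% to that of MYL12B, with exactly shared runs of at most 26 bases.

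MYL6 (ENSG00000092841, chromosome 12, 56158161 to 56163496, plus strand), the essential light chain of non-muscle and smooth muscle myosin, was 303.8 TPM with XPR1 siRNA and 123 TPM with control siRNA. The ratio was 2.47 (2.35 to 2.59, from 5685 and 2392 reads), and the difference of 1.30 had rank 305 among the same 8264 genes. MYL6 shares 514 of its 4609 exonic bases with SMARCC2 on the opposite strand and 89 with its neighbour MYL6B on the same strand. SMARCC2 was 60.03 TPM with XPR1 siRNA and 43.7 TPM with control siRNA, and MYL6B was 36.2 TPM and 23.7 TPM in the same order, both below MYL6. MYL6B had a ratio of 1.53 (1.32 to 1.76), lower than that of MYL6.

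Among the heavy chains that these light chains bind, MYH9 was 835 TPM with XPR1 siRNA and 747 TPM with control siRNA, a ratio of 1.12 (1.10 to 1.14). MYH10, the other main non-muscle heavy chain, was 97.4 TPM with XPR1 siRNA and 44.9 TPM with control siRNA, a ratio of 2.17 (2.04 to 2.30). MYH10 thus took 10.4% of the heavy chain TPM with XPR1 siRNA and 5.67% with control siRNA. Of the 6 other myosin II chains above the floor, 3 (MYH10, MYL5 and MYL6B) passed 1.5-fold upward and none downward, and the median difference was 0.45. Among all genes, the shares were 21.7% upward and 16.6% downward. MYL5, a minor light chain, was 3.89 TPM with XPR1 siRNA and 1.60 TPM with control siRNA.

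**Figure D2:**
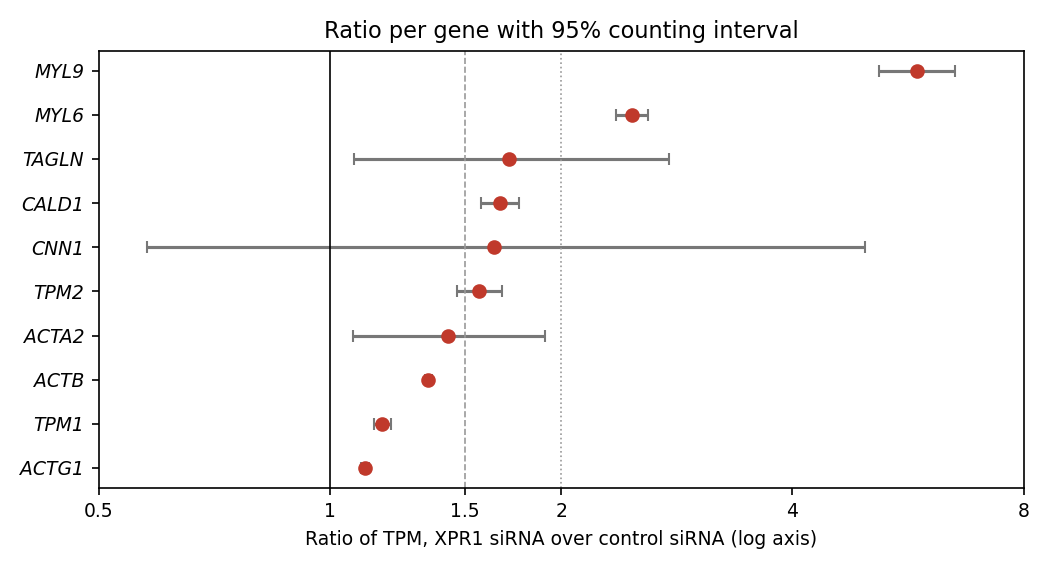
Ratio of TPM, XPR1 siRNA over control siRNA (log axis), for each of the 10 genes, with bars for the 95% Clopper-Pearson interval of counting error and lines at 1, 1.5 and 2. MYL9 and MYL6 lie past 2 with narrow bars, and only the bar of CNN1 reaches below 1.

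The tropomyosins differed from each other. TPM2 (ENSG00000198467, chromosome 9, 35681992 to 35690121, minus strand), which encodes beta tropomyosin, was 162.1 TPM with XPR1 siRNA and 103.5 TPM with control siRNA. The ratio was 1.57 (1.46 to 1.68, from 2137 and 1419 reads). With upper-quartile scaling its difference was 0.57, just short of the 1.5-fold line at 0.585. TPM1 (ENSG00000140416, chromosome 15, 63042632 to 63071915, plus strand), which encodes alpha tropomyosin, was 240.95 TPM with XPR1 siRNA and 205.9 TPM with control siRNA, a ratio of 1.17 (1.14 to 1.20). The antisense gene TPM1-AS shares 2070 exonic bases with TPM1 and was 1.17 TPM with XPR1 siRNA and 1.06 TPM with control siRNA.

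The remaining tropomyosins, TPM3 and TPM4, had ratios of 0.975 (0.936 to 1.02) and 1.05 (1.02 to 1.08). Within the 4 genes TPM2 took 19.3% of the TPM with XPR1 siRNA and 14.1% with control siRNA, while TPM4 took 36.1% and 39.3%. TPM1 took 28.7% with XPR1 siRNA and 28.0% with control siRNA. These shares, too, depend on gene length. With the length of the principal transcript, TPM2 took 7.16% with XPR1 siRNA and 5.14% with control siRNA, and TPM1 51.2% and 49.2%. TPM1 then held the largest share in place of TPM4. The share of TPM2 was again higher with XPR1 siRNA. Both tropomyosin genes of the set make several isoforms from alternative promoters and exons, and a value per gene does not tell them apart.

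**Figure D3:**
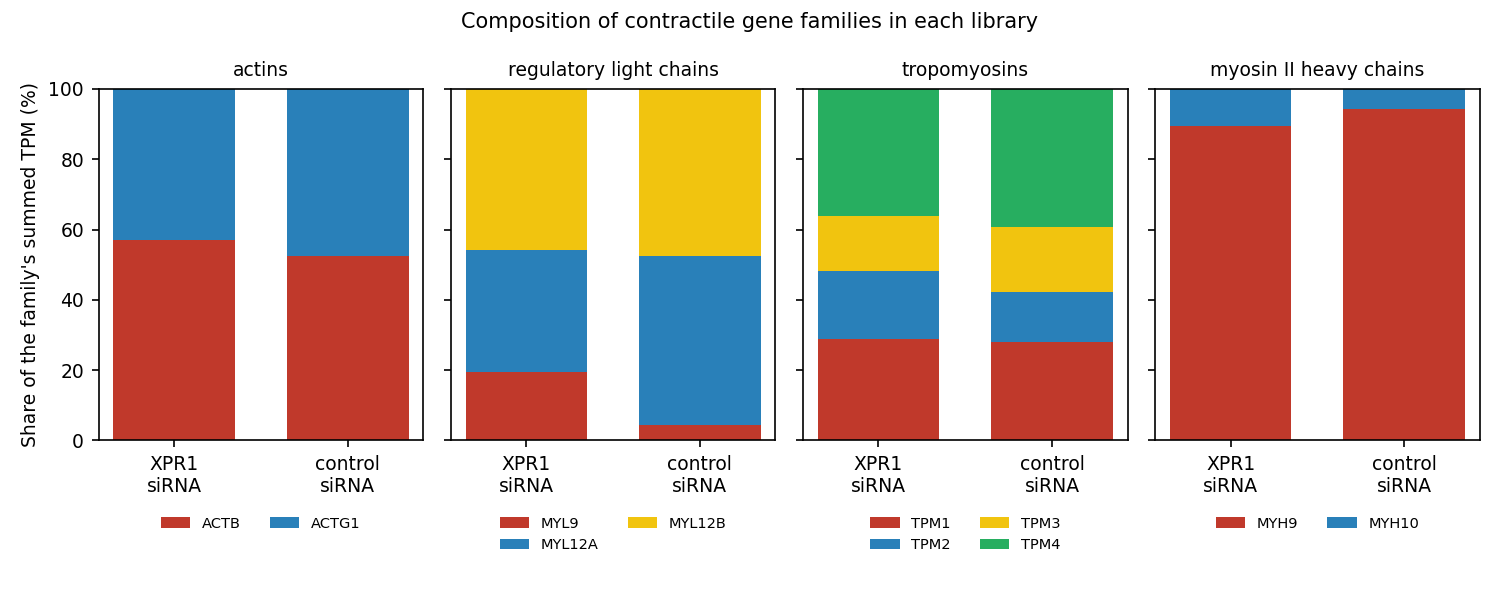
Share of each family's summed TPM (percent, bars stacked to 100) held by its genes in the XPR1 siRNA library (left bar) and the control siRNA library (right bar), for genes with at least 1% in either. MYL9 holds 19.6% of the regulatory light chain bar with XPR1 siRNA and 4.38% with control siRNA, and ACTB 57.0% and 52.4% of the actin bar.

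Of the filament binding proteins, caldesmon was the most abundant. CALD1 (ENSG00000122786, chromosome 7, 134744252 to 134970728, plus strand) was 79.0 TPM with XPR1 siRNA and 47.5 TPM with control siRNA, a ratio of 1.66 (1.57 to 1.76, from 3158 and 1972 reads). TAGLN (ENSG00000149591, chromosome 11, 117199321 to 117204782, plus strand), which encodes transgelin, also called SM22 alpha, was 3.21 TPM with XPR1 siRNA and 1.88 TPM with control siRNA. Its ratio of 1.71 rests on 51 and 31 reads (1.07 to 2.76), and its difference of 0.55 lay just short of the 1.5-fold line. TAGLN shares 446 of its 3917 exonic bases with PCSK7 on the opposite strand, which was 4.21 TPM with XPR1 siRNA and 3.39 TPM with control siRNA. CNN1 (ENSG00000130176, chromosome 19, 11538717 to 11550323, plus strand), the calponin of smooth muscle, was 0.955 TPM with XPR1 siRNA and 0.585 TPM with control siRNA. With 11 and 7 reads, a difference in CNN1 was not detectable at this depth (ratio 1.63, interval 0.578 to 4.97).

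The smooth muscle forms were thus minor beside their widely expressed paralogs. TAGLN2 was 589 TPM with XPR1 siRNA and 539 TPM with control siRNA, a ratio of 1.09 (1.05 to 1.13). TAGLN made up 0.539% of transgelin TPM with XPR1 siRNA and 0.346% with control siRNA. Neuronal TAGLN3 was 3.30 TPM with XPR1 siRNA and 0.414 TPM with control siRNA, from 23 and 3 reads. Among the calponins, CNN3 was 486.4 TPM with XPR1 siRNA and 151.6 TPM with control siRNA, a ratio of 3.21 (3.04 to 3.39). CNN2 was 164.6 TPM with XPR1 siRNA and 99.5 TPM with control siRNA, a ratio of 1.65 (1.55 to 1.77). CNN3 therefore held 74.6% of calponin TPM with XPR1 siRNA and 60.2% with control siRNA.

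By level in the control library the genes were ordered ACTB, ACTG1, TPM1, MYL6, TPM2, CALD1, MYL9, ACTA2, TAGLN and CNN1. In the XPR1 siRNA library MYL6 stood above TPM1, and MYL9 stood above TPM2 and CALD1. This change of order depended on gene length. The deposited values divide by all annotated exons of a gene, which for TPM1 is 13.1 times, for MYL6 6.12 times and for CALD1 5.14 times the length of the principal transcript. For MYL9 it is 0.995 times that length, so the value of MYL9 hardly changes. Scaled to the length of the principal transcript, TPM1 came to 3162 with XPR1 siRNA and 2702 with control siRNA, and MYL6 to 1860 and 752.8. The libraries were not rescaled to their common sum afterwards, so these values are not TPM and only order the genes within a library. By these values the order of the 10 genes was the same in both libraries. The length assigned to a gene cancels in its ratio between libraries. Whether isoform use differed between the libraries was not tested.

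The genes nearest to MYL9 in difference, among these 8264 genes, were CDKN2C (2.47), LRRC20 (2.54) and ADAMTS3 (2.46). Those nearest to ACTG1 were STRN, IDH3G and ATP5MC2, all at 0.15. Likeness here is the nearness of 1 difference between 2 libraries.

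SRF itself was lower. Its transcript was 42.8 TPM with XPR1 siRNA and 66.6 TPM with control siRNA, a ratio of 0.642 (0.585 to 0.704). MRTFA was 19.2 TPM with XPR1 siRNA and 14.0 TPM with control siRNA, a ratio of 1.38 (1.21 to 1.56). MRTFB was 18.3 TPM with XPR1 siRNA and 10.9 TPM with control siRNA, a ratio of 1.68 (1.54 to 1.85). Myocardin, the muscle-restricted member encoded by MYOCD, was listed at 0 in both. Of the ternary complex factors, ELK3 was 170.5 TPM with XPR1 siRNA and 330.3 TPM with control siRNA, a ratio of 0.516 (0.495 to 0.539). ELK1 and ELK4 had ratios of 0.928 (0.825 to 1.04) and 1.47 (1.40 to 1.55). SCAI, a repressor of MRTF, had a ratio of 1.53 (1.27 to 1.85).

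Known targets of SRF with MRTFs outside the set were mixed. Of 22 such genes, all above the floor, 4 passed 1.5-fold upward, none passed it downward and 18 lay between, and the median difference was 0.11. The 4 were FHL1, VCL, CNN2 and TLN1. VCL, which encodes the adhesion protein vinculin, was 317.8 TPM with XPR1 siRNA and 180.1 TPM with control siRNA, a ratio of 1.77 (1.72 to 1.82). TLN1, which encodes talin, had a ratio of 1.60 (1.56 to 1.64), and FHL1 1.88 (1.71 to 2.07). Among all genes, 21.7% were that much higher.

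Targets of SRF with ternary complex factors were lower. Of 10 immediate early genes, 9 were above the floor, and 8 of these passed 1.5-fold downward, against 16.6% of all genes. None passed it upward, and the median difference was -1.69. FOSB was 3.81 TPM with XPR1 siRNA and 31.1 TPM with control siRNA, and EGR1 was 28.3 TPM and 120.6 TPM in the same order. IER2 and ATF3 were 14.4 and 6.83 TPM with XPR1 siRNA, against 51.1 and 32.03 TPM with control siRNA. NR4A1, the exception, was 2.03 TPM with XPR1 siRNA and 2.70 TPM with control siRNA. The 9 contractile genes above the floor were all above 0 in these libraries, as were 54.4% of all genes, and the 9 immediate early genes were all below 0. Of the 22 MRTF targets outside the set, 14 were above 0. The lists were chosen with earlier results of these data known, so this contrast is a description only.

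**Figure D4:**
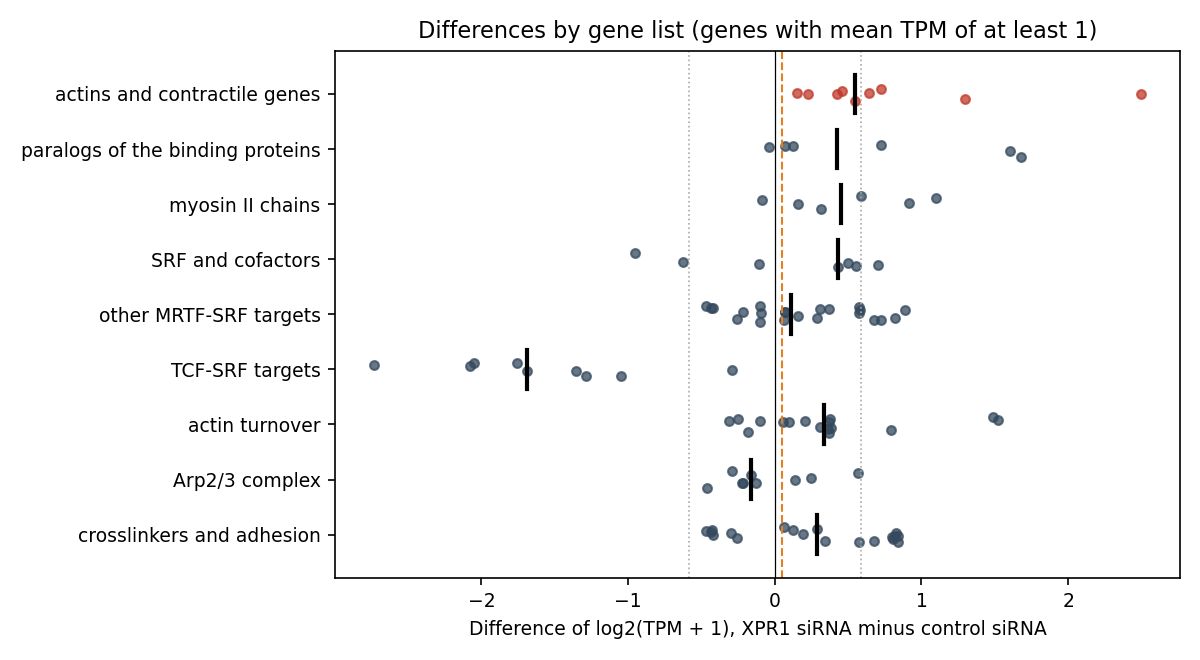
Difference of log2(TPM + 1), XPR1 siRNA minus control siRNA, for each gene averaging 1 TPM or more in the actin and contractile set (red) and in 8 lists of related genes (dark). Black bars are list medians, the dashed line is the median of all genes (0.05) and dotted lines mark 1.5-fold, and the set lies to the right of 0 (median 0.55) while the TCF-SRF targets lie to the left (median -1.69).

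Actin turnover genes had a median difference of 0.34, and 3 of 16 passed 1.5-fold upward, with none downward, against 21.7% and 16.6% of all genes. The upward count is thus near that of all genes. The thymosins, which hold actin monomers, were both among the 3. TMSB10 was 8262 TPM with XPR1 siRNA and 4770 TPM with control siRNA, a ratio of 1.73 (1.69 to 1.78). TMSB4X was 732 TPM with XPR1 siRNA and 261 TPM with control siRNA, a ratio of 2.81 (2.66 to 2.96). Gelsolin, the severing protein encoded by GSN, had a ratio of 2.93 (2.75 to 3.12), and CAP2, a cyclase-associated protein, a ratio of 1.31 (1.20 to 1.43).

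Crosslinking and adhesion genes had a median difference of 0.29, and 7 of 19 passed 1.5-fold upward, with none downward, against 21.7% and 16.6% of all genes. FLNC, FSCN1 and PLS3, which encode a filamin, fascin and a plastin, had ratios of 1.80 (1.73 to 1.88), 1.80 (1.69 to 1.92) and 1.77 (1.69 to 1.86). The subunits of the branching complex Arp2/3 lay within 1.5-fold in all 9 cases, with a median of -0.16. Of all genes, 21.7% passed 1.5-fold upward and 16.6% downward, so most lay within it too. ARPC3 had the highest ratio among them, 1.48 (1.40 to 1.57), and ACTR3 the lowest, 0.725 (0.698 to 0.752). ARPC1A and ARPC4 had ratios of 0.809 (0.667 to 0.980) and 1.19 (1.06 to 1.34). Of the 22 MRTF targets, 14 also stand in another of these lists.

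ACTA2, TAGLN and CNN1 also mark smooth muscle, pericytes and myofibroblasts, so markers of other cell types are given beside them. Both libraries come from the same cell line, so these values describe transcripts of that line and do not count cells of other types. Of 9 late smooth muscle markers, MYOCD, ACTG2 and KCNMB1 were listed at 0 in both libraries, and DES had 1 read in each. MYH11, the smooth muscle heavy chain, had 0.264 TPM with XPR1 siRNA and 0.267 TPM with control siRNA. The summed level of these 9 was 21.9 TPM with XPR1 siRNA and 24.0 TPM with control siRNA, most of it SMTN. SMTN was 14.3 TPM with XPR1 siRNA and 21.7 TPM with control siRNA, and SYNPO2 was 0.0757 TPM with XPR1 siRNA and 0.303 TPM with control siRNA. On the other side, SYNM was 6.77 TPM with XPR1 siRNA and 1.27 TPM with control siRNA.

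The 8 fibroblast markers summed to 42.5 TPM with XPR1 siRNA and 28.5 TPM with control siRNA, most of it FBLN1, and DCN was listed at 0 in both. COL1A1 was 6.67 TPM with XPR1 siRNA and 1.04 TPM with control siRNA, and LUM had 12 reads with XPR1 siRNA and 1 with control siRNA. In the other direction, COL1A2 had 0 reads with XPR1 siRNA and 3 with control siRNA, COL3A1 2 and 6, and PDGFRA 0 and 5. The 6 pericyte markers summed to 34.9 TPM with XPR1 siRNA and 10.4 TPM with control siRNA, of which NOTCH3 was 33.6 TPM and 7.05 TPM, while RGS5 was 0.744 TPM and 2.97 TPM. The 6 endothelial markers summed to 1.93 TPM with XPR1 siRNA and 2.78 TPM with control siRNA, and the 6 leukocyte markers to 0.826 TPM and 0.457 TPM. These sums describe transcripts in cultures of the same cell line, and no share of other cell types was estimated.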

How the data were processed

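RNA-seq of 2 TPC-1 libraries was used, 1 per group. RNeasy Plus kits gave the RNA and the TruSeq RNA Library Prep Kit v2, which does not mark strand, gave the libraries, per the labels' protocols. The submitters' processing notes name FastQC, MultiQC, Trimmomatic 0.38, featureCounts 2.0.0 and GRCh38. For the aligner, the annotation and multi-mapping reads, the choice is not given in the sources used here. Values were deposited by the authors as TPM, and both columns sum to 1000000.

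Symbols came from a gene identifier table and otherwise GENCODE 29 (58876 of 58884 identifiers named), and coordinates and exon lengths from GENCODE 29. The product of TPM and exon length fell on whole multiples of a step (246.3 for XPR1 siRNA, 237.0 for control siRNA), within 0.01 for 92.4% and 92.2% of genes of up to 10 reads. Over all genes above 0 TPM with a known exon length, the shares were 71.6% and 72.0%. For 5 of the 10 genes this gave whole reads directly. For the other 5 the exon length nearest to GENCODE's that made the reads of both libraries whole within 0.002 was taken. In all, whole reads were obtained for 160 of 162 listed genes. Of these, 96 used GENCODE's own length and the rest a length found in this way. This recovery was chosen after seeing the data. Clopper-Pearson intervals (95%) of ratios and shares use these reads, and those of TPM3 and SYNPO2 are approximate.

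Differences are log2(TPM + 1), XPR1 siRNA minus control siRNA, over genes averaging 1 TPM or more. The functions were tested on simulated data. The 10 genes and the 16 lists were chosen with earlier results of these data known. The result of 1 list is not reported here. Named genes were the 10, XPR1, all genes of 3 small lists, the 4 largest differences of every other pathway list and the 3 nearest genes to the highest and lowest member; other names were chosen after their values were seen. Python 3.11.15, pandas 2.3.3, numpy 2.4.6, scipy 1.17.1 and matplotlib 3.10.9 were used.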

Additional observations from a re-analysis of the deposited data

How the results depend on the processing

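Median-of-ratios and upper-quartile scaling shifted all genes down by 0.06 and 0.08 on the log2 scale. All 10 genes stayed above 0 under every scaling, pseudocount, removal of mitochondrial genes and addition of pseudogenes, with ACTG1 lowest at 0.08. The median of the set ran between 0.42 (pseudocount of 5) and 0.65 (pseudocount of 0.1), and its mean was 0.77. The number at least 1.5-fold higher was 3 with upper-quartile scaling, where TPM2 dropped out, 5 with a pseudocount of 0.1 or without mitochondrial genes, where TAGLN came in, and 4 otherwise. MYL9 and MYL6 were at least 2-fold higher in all of these.

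Counts over all genes moved more. They are counts and not shares, and a floor of 10 TPM or a limit to protein-coding genes left fewer genes to count. At least 2-fold higher and lower were 633 and 473 genes from a floor of 10 TPM, 577 and 530 with a pseudocount of 5, and 1023 and 535 among protein-coding genes, against 1699 and 1398. At least 1.5-fold higher and lower were 1633 and 1093 from 10 TPM and 2076 and 1485 with a pseudocount of 5, against 3541 and 2716, with 1294 lower among protein-coding genes. A floor of 0.1 TPM gave larger counts, 4772 higher and 4031 lower by at least 1.5-fold. By principal transcript length ACTB took 61.6% of actin TPM with XPR1 siRNA and 57.0% with control siRNA. No paired analysis was possible because there was a single library on either side, which also left no replicate to omit. Depth limits CNN1, TAGLN and ACTA2.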
